A study of Saccharomyces cerevisiae with 8 samples.

Results

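Heme depletion and oxygen removal are compared here gene by gene as responses of budding yeast (Saccharomyces cerevisiae), through the difference between them. For every transcript, the log2 change of a hem1 strain when 5-aminolevulinic acid (ALA) was withheld was set against the log2 change of a wild type strain when oxygen was removed. The first minus the second is called the interaction. All 8 arrays of the study enter it. Of its 9335 probe sets, the 9275 that are not controls were taken; 7081 of them were bright enough to be tested, and the 5762 of these with 1 gene name stand for 5284 genes. A gene with a called interaction (adjusted p under 0.05) was then sorted by the calls of its separate responses. It is opposite if they went in different directions, one-sided if a single response was called, and unequal if both went the same way by different amounts.

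The study holds 4 groups of 2 Affymetrix YG_S98 arrays, all from cells grown in YPD, a rich glucose medium. The hem1 deletion strain was grown with 250 µM ALA for 6 h and washed. Duplicate cultures of 15 ml then received the same ALA or none and were collected after 16 h at an optical density of about 0.5. The wild type strain, written BY45742 in the series text, was grown for 6 h and then for 12 h in 15 ml, either under normoxia or in an anaerobic chamber with a GasPak (hypoxia). It is not said whether the paired wild type samples came from separate cultures, so the p-values reflect the spread of these arrays alone, and this spread may be technical. Strain, treatment, and treatment time differ together between the responses, and their parts in the interaction cannot be told apart. The normoxic wild type has its own HEM1 gene and received no ALA, so the control cultures differ as well.

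HEM1 encodes the enzyme that makes ALA, the first step of heme synthesis, so a strain without it builds heme only from ALA in the medium. Later steps of the pathway need molecular oxygen, as do sterol synthesis and fatty acid desaturation, and heme is itself part of enzymes such as cytochrome c, catalase and the sterol demethylase Erg11. Yeast reads oxygen partly through heme: in its presence the activator Hap1 turns on aerobic genes, among them the repressor Rox1, which silences hypoxic genes. Sterol shortage is read separately by Upc2, which activates genes for sterol uptake and anaerobic cell wall mannoproteins.

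Signals are MAS5 values on a linear scale, and levels are compared between arrays for the same probe set only. Arrays of a group correlated at 0.976 to 0.985 over the tested probe sets (Pearson, log2 signal). The 18S ribosomal RNA control stood at 3507 on 1 array without ALA and at 10736 on 1 array in hypoxia, against 115 to 355 on the other 6, and leaving both out, which also leaves fewer degrees of freedom, kept 246 of the 859 called genes. The ratio of the 3′ to the 5′ control of the actin gene ACT1, a sign of RNA quality, lay at 1.40 and 1.49 in normoxia and at 2.11 and 2.18 in hypoxia. With ALA it was 1.86 and 1.57, and without ALA 1.81 and 1.77. Its part in the results was not tested. The 25S ribosomal RNA control read 7627 and 9804 in hypoxia and 8461 and 1939 without ALA. With ALA it read 3051 and 2403, and under normoxia 1143 and 3838. Leaving out the arrays high in 18S thus keeps the first array in hypoxia, which is high in 25S. The HEM1 probe set gave 459.7 and 608 with ALA, 849 and 696 when it was withheld, 707 and 683 under normoxia and 1413 and 1613 in hypoxia, so it does not single out the hem1 strain, and whether it lies in the deleted part is not known here. The leucine synthesis gene LEU2, a common strain marker, was bright in the hem1 arrays (1684 and 2025 with ALA, 3662 and 3486 when it was withheld, 13.7 and 36.4 under normoxia and 6.93 and 17.4 in hypoxia). The 4 mating type alpha genes lay between 91.2 and 16107. Of the markers of the other mating type, the receptor gene STE2 lay between 6.08 and 24.2 on every array, BAR1 between 52.3 and 158.9, and MFA2 between 26.8 and 167. By its brighter probe set MFA1 reached 264 and 368 without ALA, against 46.5 and 42.0 with ALA and 1.32 to 60.9 in the wild type. The part of these signals in the results was not tested.

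The interaction was called for 859 of the 5284 genes, 16.3% of those tested. It was higher, meaning that the heme depletion response lay above the hypoxia response, for 518 genes (9.8%), and lower for 341 (6.45%). After every signal was raised to at least the 30th percentile of its array, 629 of the 859 still differed at least 2-fold. This split rests on the scaling: with arrays scaled on the 9 spike-in controls, 123 genes were higher and 551 lower. Median centring moves the heme depletion response by 0.40 and the hypoxia response by 0.49 (log2), and spike-in scaling moves the interaction by 0.38. By comparison, withholding ALA changed 2650 genes (50.2%), with 1647 up (31.2%) and 1003 down (19%), and hypoxia changed 2992 (56.6%), with 1659 up (31.4%) and 1333 down (25.2%).

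Opposite responses were the smallest of the main classes, with 87 genes (1.65%). Of these, 54 rose without ALA and fell in hypoxia, and 33 fell without ALA and rose in hypoxia. A call under heme depletion only was found for 196 genes (3.71%), 134 up and 62 down. In 170 of them the 95% interval of the hypoxia response lay within -1 and 1 on the log2 scale, so a change of more than 2-fold in hypoxia lay outside that interval. Hypoxia only described 320 genes (6.06%), 126 up and 194 down, with 266 showing a heme depletion interval within the same bounds. Unequal responses in the same direction were found for 252 genes (4.77%). Hypoxia had the larger effect on 105 that rose and 74 that fell, and heme depletion on 58 that rose and 15 that fell. In 4 genes (0.0757%), EMA19, LOT6, RLF2 and YIH1, the interaction was called although neither response was; they are named because so few met this description, and none of them kept it in more than 2 of 17 alternative treatments of the data.

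**Figure D1:**
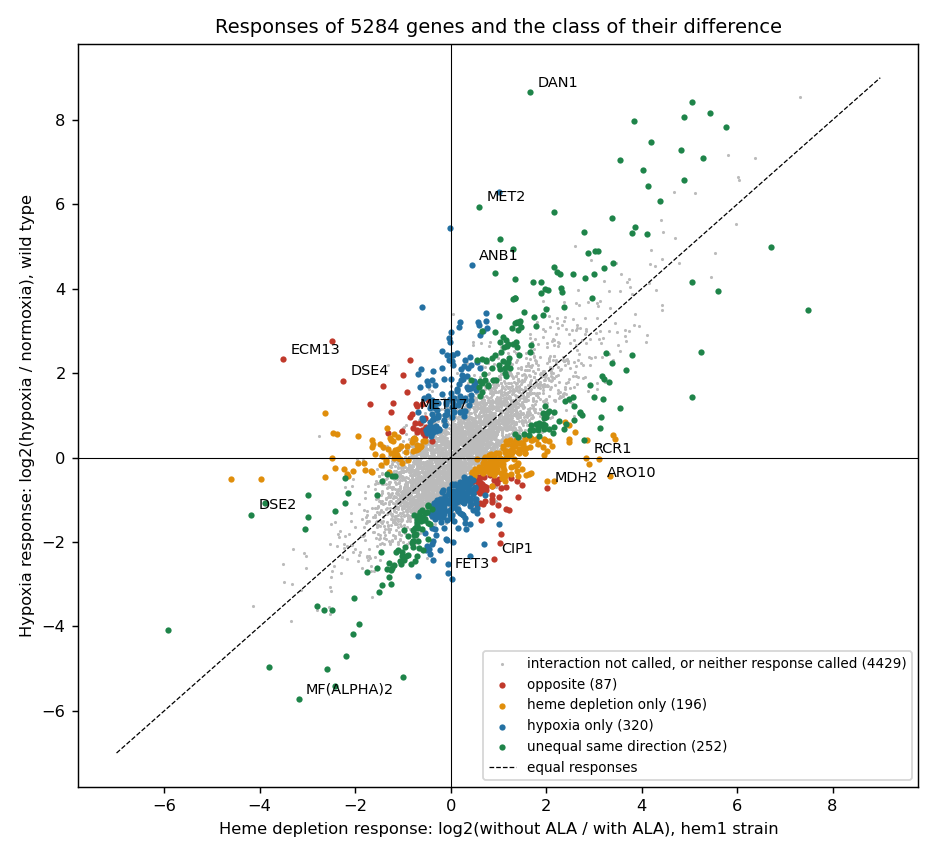
Log2 heme depletion response (horizontal) against log2 hypoxia response (vertical) for each of the 5284 genes, coloured by class, with the diagonal of equal responses and some genes labelled. Of the called genes, the 87 opposite ones lie at the upper left and lower right, and the 252 unequal ones lie at the upper right and lower left, away from the diagonal.

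**Figure D2:**
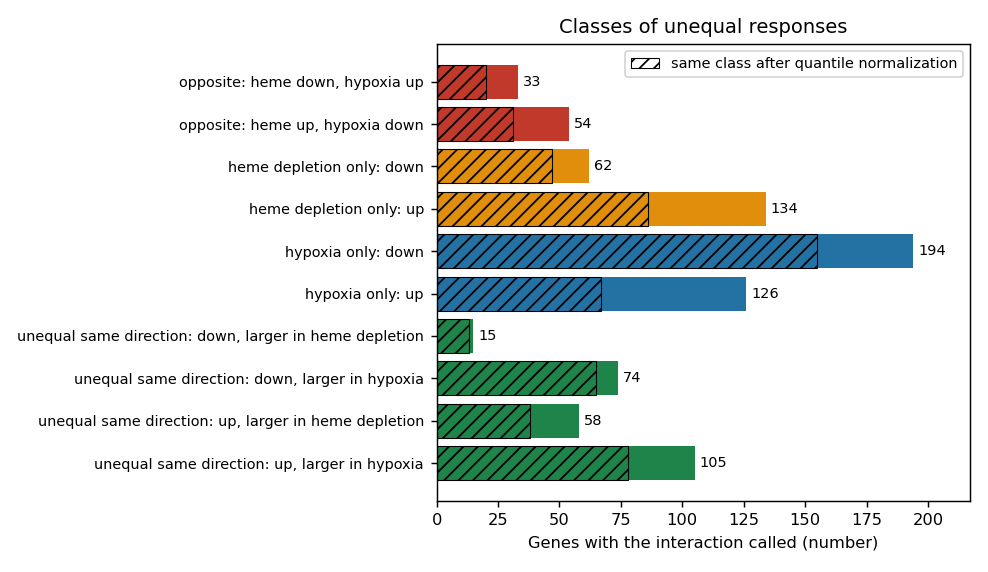
Number of genes with a called interaction in each class and direction (bars, axis from 0), with the part that keeps its class after quantile normalization hatched. The longest bar is hypoxia only, down, with 194 genes, and the shortest drawn is down, larger in heme depletion, with 15. The 4 genes with neither response called are not drawn.

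The threshold itself parts near neighbours. UBC13 (adjusted p = 0.0496) and MAP2 (0.0498) were the last genes called, and LDS2 and SDS24 (both 0.0501) were the next. The sign of the interaction held for all 859 called genes under 15 of the 17 alternative treatments of the data. With a floor under low signals it held for 858, and with a stricter filter for all 807 that still had a value. Every alternative reuses the arrays on which these genes were called, so a kept sign is not independent support. The class is less settled: 51 of the 87 opposite genes were still opposite after quantile normalization and 31 after median centring. Of the 196 genes called under heme depletion only, 133 and 88 kept class and direction in those settings, respectively. Of the 320 called in hypoxia only, 222 and 183 did, and of the 252 unequal ones 194 and 186. A response that was not called is thus not shown to be absent. Over all classes, 92 genes kept class and direction under all 17. Where a gene given below with a fold changed class in any of them, this is said beside it.

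Among genes that fell without ALA and rose in hypoxia, ECM13, whose function is not known, had the largest interaction. Its signals were 864 and 892 with ALA, 67.7 and 87.1 when it was withheld, 99.5 and 82.4 under normoxia and 457 and 450.3 in hypoxia. The cultures with ALA were the highest and those without it overlapped normoxia, while hypoxia lay between them with no overlap. ECM13 thus fell 11.4-fold without ALA and rose 5.01-fold in hypoxia, with an interaction of -5.84 (SE 0.27, adjusted p = 8.23e-05).

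DSE4 encodes a glucanase that daughter cells use to part from their mothers. On the arrays it read 551 and 654 with ALA, 131 and 121 when it was withheld, 187 and 247 under normoxia and 721 and 799 in hypoxia. The arrays without ALA were the lowest and those in hypoxia the highest, and no groups overlapped. It fell 4.77-fold and rose 3.53-fold respectively (interaction -4.07, SE 0.27, adjusted p = 0.000272).

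IDH1, a subunit of the isocitrate dehydrogenase of the citric acid cycle, stood at 2223 and 3077 with ALA, 1308 and 1317 when it was withheld, 314 and 443 under normoxia and 1335 and 1585 in hypoxia. The control cultures were the extremes here: with ALA it was highest, in normoxia lowest, and the treated cultures lay next to each other in between. The interaction of IDH1 was -2.96 (SE 0.31, adjusted p = 0.00123), from a 1.99-fold fall and a 3.90-fold rise. MET17, the sulfhydrylase that builds homocysteine from inorganic sulfide, gave 3504 and 4289 with ALA, 2196 and 2227 when it was withheld, 4384 and 4567 under normoxia and 8815 and 9503 in hypoxia. No groups overlapped: the arrays without ALA were the lowest and those in hypoxia the highest. MET17 fell 1.75-fold and rose 2.05-fold, with an interaction of -1.84 (SE 0.20, adjusted p = 0.00129). SAM1, an S-adenosylmethionine synthetase, showed a 1.81-fold fall without ALA, a 1.95-fold rise in hypoxia and an interaction of -1.82 (SE 0.24, adjusted p = 0.00314). MET17 and SAM1 were chosen after their values were seen because their class held throughout.

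The regulator gene VHR1, whose protein activates biotin genes, and PRM7, a pheromone-regulated gene, also went down without ALA and up in hypoxia. VHR1 fell 2.67-fold and rose 3.26-fold, and PRM7 fell 1.81-fold and rose 4.95-fold. A second probe set of PRM7 was sorted the same way, with log2 responses of -0.53 and 3.03. REG2, a subunit of a protein phosphatase, had an interaction of -2.47 (SE 0.44, adjusted p = 0.00850), but its class is not secure: it became hypoxia only in 6 of the 17 alternatives, with no filter on dim probe sets, without the first (-2.25) or second (-2.69) array with ALA, without the second lacking ALA (-2.03), and without the first (-2.41) or second (-2.53) in hypoxia, where the values are interactions.

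The reverse pattern, up without ALA and down in hypoxia, was called for 54 genes. MDH2, the cytosolic malate dehydrogenase of gluconeogenesis, measured 1531 and 1788 with ALA, 6925 and 6574 when it was withheld, 4481 and 4778 under normoxia and 2660.0 and 2989 in hypoxia. Arrays without ALA were the highest of all and arrays with ALA the lowest, with the wild type groups between them and hypoxia below normoxia. MDH2 rose 4.08-fold and fell 1.64-fold (interaction 2.74, SE 0.20, adjusted p = 0.000297).

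CIP1, an inhibitor of the G1 cyclin-dependent kinase, was highest in normoxia: 124 and 158 with ALA, 258 and 269.6 when it was withheld, 695 and 609 under normoxia and 129 and 118 in hypoxia. The arrays in hypoxia overlapped those with ALA. Its 1.88-fold rise without ALA and 5.27-fold fall in hypoxia gave an interaction of 3.31 (SE 0.26, adjusted p = 0.000437); spike-in scaling, which took the heme depletion response below the threshold, made it hypoxia only. YOL014W, an uncharacterised reading frame, rose 2.06-fold and fell 3.52-fold. FPT1 rose 2.64-fold and fell 1.91-fold.

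The arginase gene CAR1, the first step of arginine breakdown, read 1712 and 1629.6 with ALA, 2668 and 2513 when it was withheld, 2342 and 2125 under normoxia and 742 and 859 in hypoxia. No groups overlapped, and the arrays without ALA were the highest and those in hypoxia the lowest. CAR1 rose 1.55-fold and fell 2.80-fold, with an interaction of 2.12 (SE 0.21, adjusted p = 0.000876); with median centring or spike-in scaling the rise was not called. BNA1, a dioxygenase of NAD synthesis that uses molecular oxygen, rose 1.83-fold and fell 2.56-fold (interaction 2.23, SE 0.31, adjusted p = 0.00408), and became hypoxia only with median centring, spike-in scaling or without the first array with ALA (interaction 2.18). URA2, for the enzyme that opens pyrimidine synthesis, and URA8, a CTP synthase, were chosen after their values were seen because their class held throughout. URA2 rose 1.81-fold and fell 1.84-fold, and URA8 rose 1.82-fold and fell 2.08-fold.

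**Figure D3:**
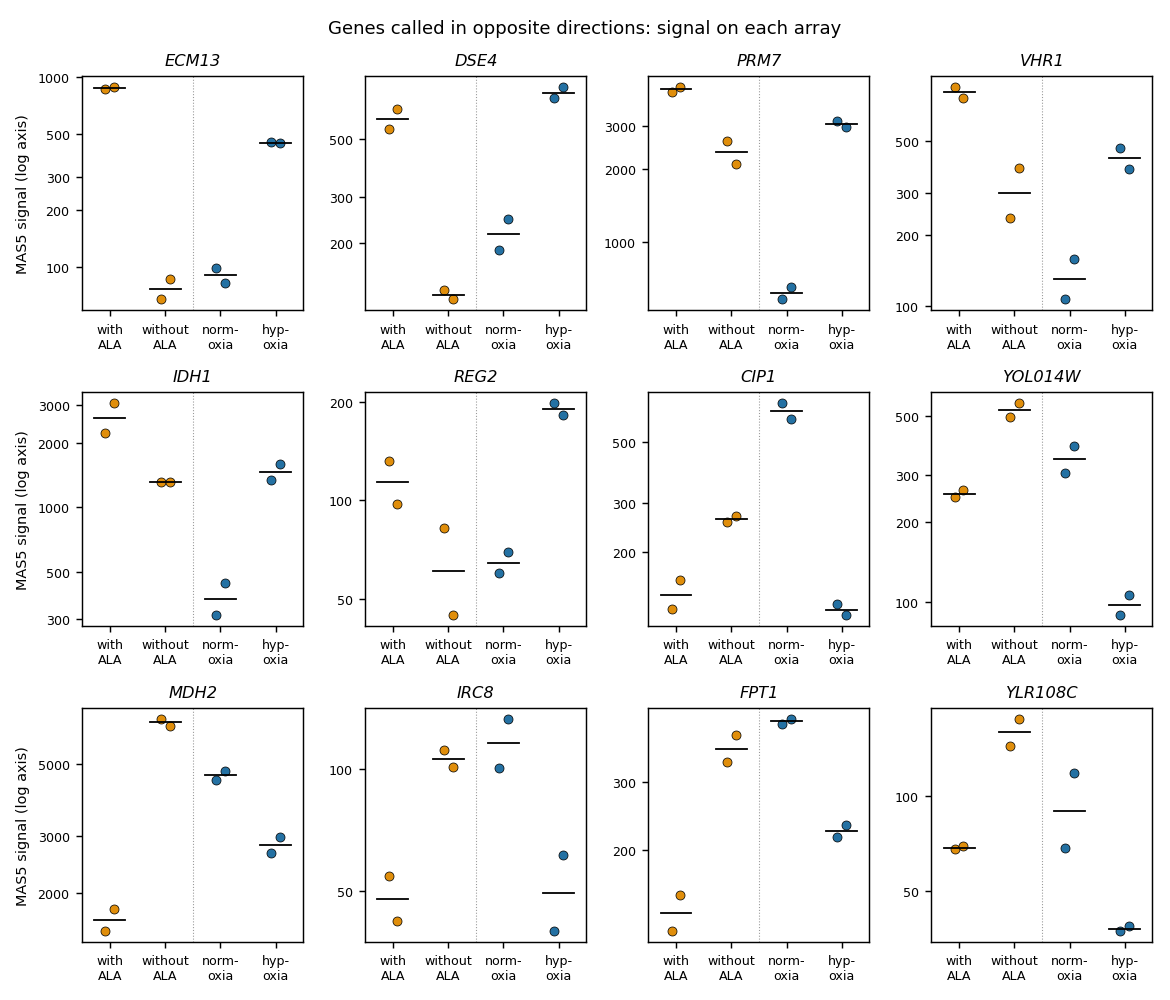
MAS5 signal on each of the 8 arrays (points, log axis) for 12 genes called in opposite directions, with the geometric mean of each group as a bar; hem1 arrays are orange and wild type arrays blue. The first 6 panels (ECM13 to REG2) fall without ALA and rise in hypoxia, and the last 6 (CIP1 to YLR108C) do the reverse.

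A rise was called under heme depletion only for 134 genes, and in 63 of them the hypoxia estimate was positive too. GPA2, a G protein alpha subunit of glucose signalling, stood at 971 and 898 with ALA, 4084 and 3513 when it was withheld, 1339 and 1470.1 under normoxia and 1455 and 1675 in hypoxia. The arrays without ALA were the highest and those with ALA the lowest, while the wild type groups overlapped between them. GPA2 rose 4.06-fold without ALA, and its log2 hypoxia response was 0.15 (95% interval -0.20 to 0.51). The interaction was 1.87 (SE 0.22, adjusted p = 0.00168). ARO10, a decarboxylase in the breakdown of aromatic amino acids, gave 32.3 and 22.3 with ALA, 242 and 224 when it was withheld, 105 and 132 under normoxia and 111 and 122 in hypoxia. It rose at least 6.41-fold from a level below the 30th percentile with ALA, and its hypoxia response was -0.022 (95% interval -0.57 to 0.53). The interaction of ARO10 was 3.14 (SE 0.34, adjusted p = 0.00125), and 2.70 after dim signals were raised to that percentile. Here too the wild type groups overlapped and lay between the hem1 groups.

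RCR1, involved in chitin deposition in the wall, and BTN2, a sorting factor for misfolded proteins, rose 7.13-fold and 7.51-fold without ALA. Their log2 responses to hypoxia were -0.019 and -0.15, which median centring turned into called falls, so that scaling decides whether these genes are one-sided or opposite. Their interactions were 2.85 (SE 0.23) and 3.06 (SE 0.30). YOR385W, uncharacterised, rose 10.5-fold and showed a hypoxia response of 0.54 (SE 0.22, adjusted p = 0.0627), which was called without either single array with ALA and then made the gene unequal (interactions 2.55 and 3.15).

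Falls under heme depletion alone were called for 62 genes. HPT1, a purine salvage enzyme, measured 1094 and 1196 with ALA, 459.9 and 291 when it was withheld, 438 and 436 under normoxia and 579.6 and 585 in hypoxia. The highest arrays were those with ALA, and the lowest those without it and in normoxia, which overlapped. HPT1 fell 3.13-fold without ALA and its hypoxia response was 0.41 (SE 0.22, adjusted p = 0.137); without either single array lacking ALA that response was called and the gene became opposite (interactions -2.39 without the first and -1.73 without the second). FIT1, a cell wall mannoprotein that holds iron-bearing siderophores, read 1259.7 and 1308 with ALA, 273 and 219.6 when it was withheld, 46.2 and 18.3 under normoxia and 35.6 and 51.3 in hypoxia. It fell 5.24-fold without ALA, and in each wild type group 1 of 2 arrays was below the 30th percentile. Its interaction (-2.94, SE 0.56, adjusted p = 0.0108), which was -2.66 with dim signals raised, was not called without the arrays high in 18S, and the gene became opposite without the first array in normoxia (interaction -3.61).

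A fall was called in hypoxia only for 194 genes, among them FET3, CTR1 and FRE1 of high-affinity metal uptake. In 83 of the 194 the heme depletion estimate was negative too. FET3, a multicopper oxidase that uses oxygen to take up iron, read 5509.5 and 6083 with ALA, 5333 and 5748 when it was withheld, 3073 and 2993 under normoxia and 449 and 459 in hypoxia. Arrays in hypoxia were far below all others, and the hem1 groups overlapped each other above normoxia. FET3 fell 6.68-fold in hypoxia, and its log2 response to heme depletion was -0.064 (95% interval -0.37 to 0.24). The interaction was 2.68 (SE 0.19, adjusted p = 0.000272); median centring, which lowers both responses, called a fall without ALA too and made it unequal. CTR1, the high-affinity copper transporter, showed the same order: 997 and 905 with ALA, 1165 and 824 when it was withheld, 599 and 639 under normoxia and 148 and 163 in hypoxia. It fell 3.99-fold in hypoxia against a log2 heme depletion response of 0.045 (interaction 2.04, SE 0.27, adjusted p = 0.00324). FRE1, the reductase that serves both metals, fell 3.23-fold in hypoxia and had a heme depletion response of 0.33 (95% interval -0.032 to 0.69). The interaction of FRE1 was 2.02 (SE 0.22, adjusted p = 0.00130).

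REE1, a gene linked to galactose metabolism, and YRA1, an mRNA export factor, fell 7.30-fold and 5.77-fold in hypoxia, with log2 heme depletion responses of 0.028 and -0.054. A second, dimmer probe set of YRA1 fell in both treatments (-0.88 and -1.96), with a called interaction of 1.08, so the probe sets of this gene differ on whether it is one-sided. ZEO1, a plasma membrane protein gene, fell 5.04-fold in hypoxia, while its heme depletion response (0.41, SE 0.20, adjusted p = 0.114) was called without the first array with ALA and then made the gene opposite (interaction 3.01).

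A rise was called in hypoxia only for 126 genes, and in 62 of them the heme depletion estimate was positive too. HEM13 encodes coproporphyrinogen oxidase, a classical hypoxic gene. Its signals were 524 and 756 with ALA, 459.8 and 866 when it was withheld, 363 and 194 under normoxia and 2406 and 1817 in hypoxia. In hypoxia it exceeded every other array, and the hem1 groups overlapped. HEM13 rose 7.88-fold in hypoxia against a log2 heme depletion response of 0.0030 (95% interval -0.87 to 0.87), an interaction of -2.98 (SE 0.54, adjusted p = 0.00917) that was not called without the arrays high in 18S. YHK8, a putative drug transporter, rose 8.61-fold in hypoxia, with a heme depletion response of 0.18 (95% interval -0.29 to 0.65) and an interaction of -2.92 (SE 0.29, adjusted p = 0.000876). With ALA it already stood 5.12-fold above normoxia. MET6, the methionine synthase, behaved otherwise: 509 and 593 with ALA, 399 and 716 when it was withheld, 734 and 417 under normoxia and 4125 and 3762 in hypoxia. All groups but hypoxia overlapped and the rise in hypoxia was 7.12-fold (interaction -2.87, SE 0.46, adjusted p = 0.00607).

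ARG1 of arginine synthesis, GUT1, the glycerol kinase, and YEH1, a steryl ester hydrolase, were also hypoxia only, with rises of 5.40-fold, 4.34-fold and 4.59-fold. Their log2 responses to heme depletion were 0.052, 0.37 and 0.041. YEH1 was chosen after its values were seen. With ALA their levels were above those in normoxia by 2.51-fold, 3.17-fold and 2.35-fold.

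**Figure D4:**
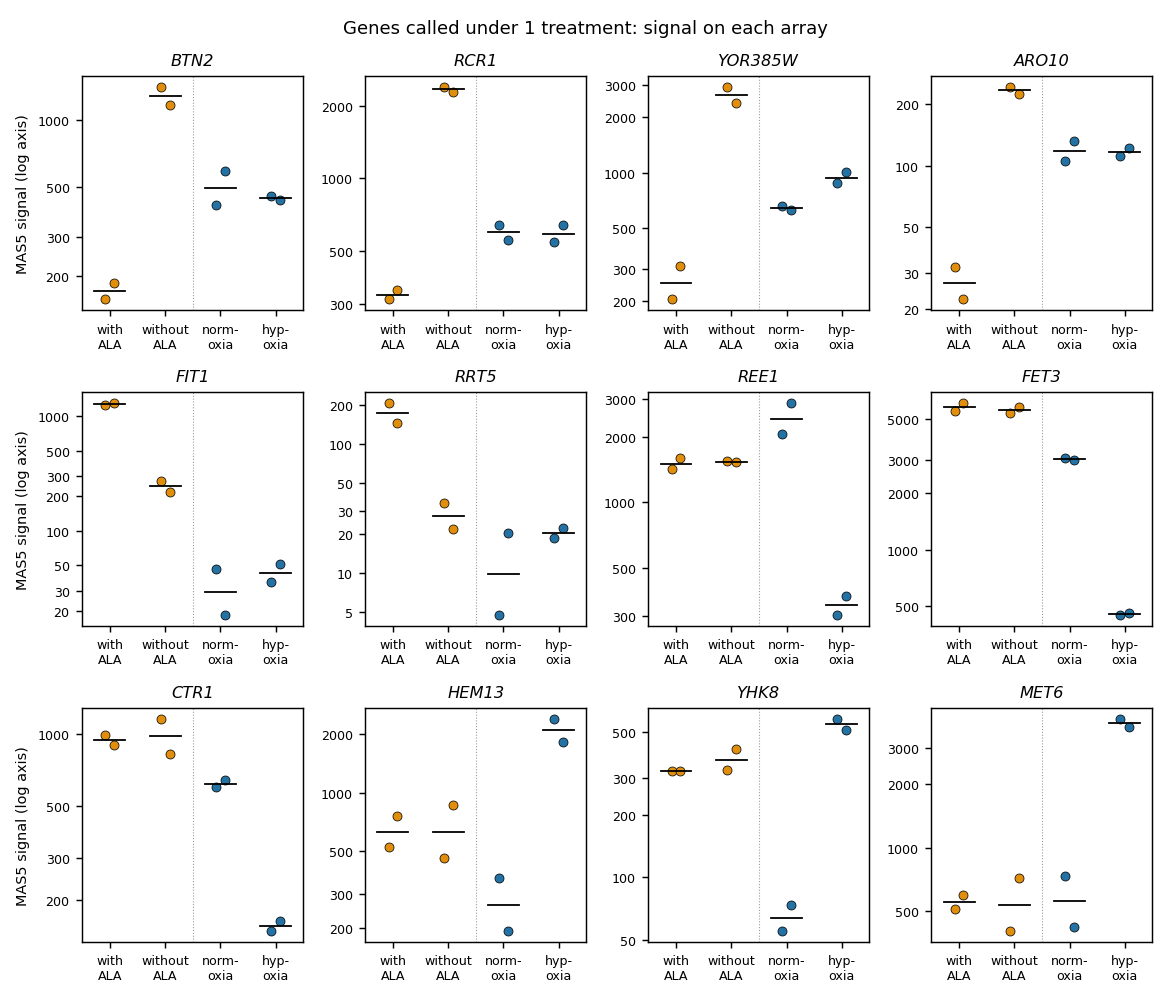
MAS5 signal on each of the 8 arrays (points, log axis) for 12 one-sided genes, with the geometric mean of each group as a bar; hem1 arrays are orange and wild type arrays blue. From BTN2 to RRT5 the hem1 groups stand apart and the wild type groups are close, and from REE1 to MET6 the reverse holds.

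Among the unequal responses, genes that rose in both treatments came first in number. PEP12, a SNARE of the endosome, measured 56.9 and 74.6 with ALA, 718 and 796 when it was withheld, 151 and 146 under normoxia and 335 and 337 in hypoxia, and no groups overlapped. It rose 11.6-fold without ALA and 2.26-fold in hypoxia, with an interaction of 2.36 (SE 0.26, adjusted p = 0.00135). SRL3, a regulator of the G1 transition, rose 9.19-fold and 2.61-fold respectively (interaction 1.82, SE 0.30, adjusted p = 0.00704). On the side of hypoxia, HUG1, a small inhibitor of ribonucleotide reductase, gave 1098 and 1342 with ALA, 2379 and 2618 when it was withheld, 139 and 96.1 under normoxia and 3916 and 4402 in hypoxia. Normoxia stood far below the rest, and the rise of 2.06-fold without ALA compared with 36.0-fold in hypoxia (interaction -4.13, SE 0.29, adjusted p = 0.000272). EEB1, an enzyme of ethyl ester synthesis, rose 1.90-fold and 20.6-fold, and GSC2, a catalytic subunit of glucan synthase, 2.56-fold and 18.9-fold by its brightest probe set. Of 7 tested probe sets of GSC2, 2 had a called interaction (-2.88 and -1.71), and the estimates of the other 5 ran from -1.09 to -0.032.

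Gene lists were then read by role, each against the 16.3% of all genes called. The lists were drawn up with earlier results of these data known, so their counts describe and do not test them. Of the members named below, MET5, MET28, SUL2, ERG5, FTR1 and EGT2 were chosen after their values were seen. The median interaction over all genes tested was 0.092.

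The anaerobic cell wall genes, except TIR1, rose in both treatments, and rose more in hypoxia in every called case. All 6 DAN/TIR mannoprotein genes had lower interactions (median -2.38), 5 of them unequal and TIR1 hypoxia only, and 9 of 10 seripauperin genes did (median -2.39), all unequal. Of 24 seripauperin genes listed, 10 had a probe set with 1 gene name. Near-identical copies may share signal, so the 9 may not be separate readings. Under the 3 other scalings all called members were lower too, 6 of 6 and 9 or 10 of 10. DAN1 read 1357 and 2638 with ALA, 5919 and 6119 when it was withheld, 11.5 and 32.7 under normoxia and 7492 and 8259.5 in hypoxia. No groups overlapped, and in normoxia 1 of 2 arrays was below the 30th percentile. DAN1 rose 3.18-fold without ALA and at least 267-fold in hypoxia (interaction -6.99, SE 0.65, adjusted p = 0.000797, and -6.39 with dim signals raised to the percentile). It became hypoxia only without the first array with ALA (interaction -7.47), without the first (-6.97) or second (-7.02) array lacking ALA and without the arrays high in 18S.

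TIR4 measured 1123 and 1722 with ALA, 16799 and 15572 when it was withheld, 102 and 108 under normoxia and 12702 and 15272 in hypoxia. The arrays without ALA were just above those in hypoxia, and its interaction was -3.51 (SE 0.30, adjusted p = 0.000607) from rises of 11.6-fold and 133-fold. TIR1 was bright throughout the hem1 strain (24136 and 19607 with ALA, 26946 and 23123 when it was withheld, 2941 and 3015 under normoxia and 25880.0 and 29299.9 in hypoxia), with a log2 heme depletion response of 0.20 (95% interval -0.14 to 0.54) against a 9.25-fold rise in hypoxia. Quantile normalization called the former and made TIR1 unequal. PAU3 and PAU10, seripauperins with near-identical copies that the probes may not tell apart, rose 43.2-fold and 18.3-fold without ALA and 285-fold and 177-fold in hypoxia.

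A list of 11 genes of the Rox1 type held hypoxic genes and ROX1, the gene of the repressor itself. Of the 11, 4 had lower interactions and all 4 were hypoxia only: ANB1, HEM13, SUT1 and AAC3 (list median -0.38). ANB1, the hypoxic form of the translation factor eIF5A, measured 7713 and 8217 with ALA, 11879 and 9776 when it was withheld, 518 and 629 under normoxia and 12336 and 14677 in hypoxia. Normoxia alone was low, and the arrays without ALA were above those with ALA and below hypoxia. Its 23.6-fold rise in hypoxia met a log2 heme depletion response of 0.44 (SE 0.17, adjusted p = 0.0564), which quantile normalization and the removal of the second array without ALA (interaction -3.98) called, which made it unequal. SUT1, a regulator of sterol uptake, stood at 409 and 384 with ALA, 379 and 372 when it was withheld, 96.2 and 81.0 under normoxia and 481 and 479 in hypoxia. It rose 5.43-fold in hypoxia (interaction -2.52, SE 0.23, adjusted p = 0.000787); median centring called a fall without ALA. AAC3, the anaerobic ADP/ATP carrier, rose 3.58-fold in hypoxia with a heme depletion response of -0.40 (SE 0.25, adjusted p = 0.207), and median centring and quantile normalization made it opposite, while its interaction was not called without the arrays high in 18S.

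The other 7 genes of this list had interactions between -0.85 and 0.19 that were not called. Among them ROX1 had log2 responses of -0.33 without ALA and -0.52 in hypoxia. PUG1, a porphyrin transporter, rose 7.11-fold without ALA and at least 5.57-fold in hypoxia, with an interaction of -0.21 (SE 0.47, adjusted p = 0.792). COX5B, the hypoxic cytochrome oxidase subunit, and HMG2, an isozyme of the sterol pathway, were called as rising in both treatments, and the 95% intervals of their interactions were -0.43 to 0.73 and -0.82 to 0.39. Both rises of HMG2 were called in all 17 alternatives. For COX5B, median centring called neither rise. The rise without ALA (0.75) was not called with spike-in scaling or without the first array with ALA (0.69). The rise in hypoxia (0.60) was not called with quantile normalization, without the first array in hypoxia (0.40), or without the first (0.62) or second (0.59) in normoxia. CYC7 (-0.85, SE 0.31, adjusted p = 0.0927) was called with log2(signal + 50) and with spike-in scaling.

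Among 14 sterol uptake and esterification genes 6 were lower, 3 hypoxia only and 3 unequal, and none was higher (median -0.81); quantile normalization called 6 lower and 1 higher. AUS1, a sterol importer, gave 305 and 297 with ALA, 2175 and 2229 when it was withheld, 94.8 and 98.6 under normoxia and 2804 and 2731 in hypoxia, with no overlap between groups. It rose 7.31-fold without ALA and 28.6-fold in hypoxia (interaction -1.97, SE 0.20, adjusted p = 0.000962). Of 6 tested probe sets of AUS1, 2 had a called interaction, and the estimates ran from -2.28 to 1.52. UPC2, the regulator of this group, read 138 and 123 with ALA, 909 and 928 when it was withheld, 48.3 and 41.2 under normoxia and 909.7 and 807 in hypoxia. Its treated groups overlapped after rises of 7.04-fold and 19.2-fold (interaction -1.45, SE 0.24, adjusted p = 0.00704), a call lost without the arrays high in 18S.

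Of 26 ergosterol synthesis genes, 7 were lower and none higher (median -0.40), and 4 of them, ERG1, ERG5, ERG7 and ERG11, were opposite. ERG1 kept this class in 13 of the 17 alternatives and ERG7 in 11. ERG11, the heme-containing demethylase, measured 5921 and 4647 with ALA, 3246 and 3003 when it was withheld, 5391 and 5259 under normoxia and 9698 and 9146 in hypoxia. The control cultures overlapped, all arrays without ALA were below them and all in hypoxia above. It fell 1.68-fold and rose 1.77-fold (interaction -1.57, SE 0.21, adjusted p = 0.00322); with median centring the rise was not called. ERG5, the other cytochrome P450 of the pathway, fell 1.63-fold and rose 2.34-fold, but its fall had an adjusted p of 0.0431 and was lost in 8 of the 17 alternatives, with interactions of -1.60 without the second array with ALA, -2.04 and -1.83 without the first or second lacking it, and -1.90 and -1.96 without the first or second in hypoxia. Its interaction was not called without the arrays high in 18S. CYB5, the cytochrome b5 that feeds electrons to this pathway, rose 3.28-fold in hypoxia. Its heme depletion response was -0.33 (SE 0.17, adjusted p = 0.130), and each of the 3 scalings called it and made CYB5 opposite.

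Heme synthesis held 2 called genes of 8, HEM13 and HEM2, both lower. HEM2, which joins pairs of ALA molecules, fell 1.57-fold without ALA and rose 1.76-fold in hypoxia (interaction -1.46, SE 0.32, adjusted p = 0.0177); it kept this class in 8 of 17 alternatives and the call was lost when either array with ALA or either array in hypoxia was left out (interactions -1.50, -1.43, -1.43 and -1.50), or both arrays high in 18S. It became one-sided without the first array lacking ALA (-1.26) or the second in normoxia (-1.16). Among 12 genes listed as activated by Hap1 and heme, 4 were called, 2 higher (CYC1 and DLD1) and 2 lower (ERG11 and YHB1). DLD1 had log2 responses of 1.31 without ALA and 0.15 in hypoxia, and kept its class in 16 of the 17 alternatives. By its brightest probe set, HAP1 itself had log2 responses of -1.26 without ALA and 0.41 in hypoxia, with a called interaction of -1.67. A second probe set was sorted the same way, but the names of both end in _f_at. That kind was left out when the largest interactions of each class were picked. The remaining probe set, of another kind, rose in both treatments (2.01 and 2.31), and its interaction of -0.29 (adjusted p = 0.3615) was not called. The probe sets of HAP1 thus differ, and its direction without ALA is not settled here. Whether Hap1 was active in these strains was not tested. CYC1, for cytochrome c, was bright in normoxia alone: 18.3 and 32.1 with ALA, 10.9 and 13.7 when it was withheld, 660.4 and 809.6 under normoxia and 22.2 and 17.6 in hypoxia. It fell at least 17.4-fold in hypoxia. All hem1 and hypoxia arrays lay below their 30th percentile, so no fold is given for heme depletion, and CYC1 kept its class in 6 of the 17 alternatives. Of 25 nuclear respiratory chain genes, CYC1 and COX5A were the called ones, both higher (list median 0.34, and -0.03 with spike-in scaling). COX5A, the aerobic counterpart of COX5B, read 255 and 259 with ALA, 123 and 132 when it was withheld, 719 and 782 under normoxia and 164 and 155 in hypoxia. Its fall was 2.02-fold without ALA and 4.71-fold in hypoxia (interaction 1.22, SE 0.22, adjusted p = 0.00954), not called with spike-in scaling or without the arrays high in 18S. YHB1, a flavohemoglobin, fell more without ALA, 8.24-fold against 3.21-fold, by its brightest probe set (interaction -1.36, SE 0.22, adjusted p = 0.00668), while the 2 other probe sets had interactions of -0.22 and 0.39 that were not called.

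Sulfur genes were called more often than the background. Of 22 genes for sulfate assimilation, methionine and S-adenosylmethionine, 17 had a called interaction and all 17 were lower. Among them 9 were unequal, 6 hypoxia only and 2 opposite, and the list's median was -1.96. Under the 3 scalings 17 or 18 were called, all lower, and without the arrays high in 18S 13 were, all lower. In hypoxia 19 of the 22 rose and none fell, whether or not they also changed without ALA. Without ALA 10 rose and 4 fell.

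STR3, cystathionine beta-lyase, measured 107 and 116 with ALA, 367 and 367 when it was withheld, 52.6 and 64.3 under normoxia and 1037 and 1030.1 in hypoxia. No groups overlapped, and both treatments raised it: 3.30-fold without ALA and 17.8-fold in hypoxia (interaction -2.43, SE 0.24, adjusted p = 0.000901). MET28, a cofactor of the sulfur activator Met4, rose 2.49-fold and 13.5-fold, and SUL2, a sulfate permease, 2.62-fold and 9.22-fold. MMP1, a permease for S-methylmethionine, read 68.0 and 79.5 with ALA, 75.8 and 69.8 when it was withheld, 52.4 and 75.5 under normoxia and 415 and 431 in hypoxia; hypoxia stood apart and the other groups overlapped. MET5, of sulfite reductase, likewise rose 4.90-fold in hypoxia with a log2 heme depletion response of 0.032 (95% interval -0.37 to 0.43). MET2, which makes O-acetylhomoserine, had the largest interaction of the list, -5.35 (SE 0.27, adjusted p = 9.56e-05), from a rise of at least 51.6-fold in hypoxia. With dim signals raised it was -5.09. Its rise without ALA (0.59, SE 0.19, adjusted p = 0.0313) was lost in 9 of the 17 alternatives, which made it hypoxia only. These were the 3 other scalings, removal of the arrays high in 18S, and removal of the first (-5.46) or second (-5.23) array with ALA, the first lacking it (-5.47), or the first (-5.44) or second (-5.26) in hypoxia, with the interactions in brackets.

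Of 26 genes of the iron regulon, 6 were called: FET3, FTR1 and FRE1 higher, and FIT1, FIT2 and FRE3 lower (median 0.015). FRE3 was not called when any one of the arrays other than the second in normoxia was left out (interactions -2.41 to -1.50). The median was 0.34 with quantile normalization and -0.36 with spike-in scaling. FTR1, the permease that works with FET3, fell 2.67-fold in hypoxia, with a log2 heme depletion response of -0.16; median centring made it unequal, and spike-in scaling and removal of the arrays high in 18S ended its interaction call (1.26, SE 0.22, adjusted p = 0.00874). FIT2, a siderophore-binding mannoprotein, rose 2.18-fold in hypoxia, with 5373 and 7053 with ALA, 5453 and 4709 when it was withheld, 299 and 371 under normoxia and 709.7 and 742 in hypoxia. All wild type arrays were below all hem1 arrays. Median centring made FIT2 opposite, and its interaction (-1.40, SE 0.26, adjusted p = 0.0104) was not called without the arrays high in 18S. HMX1, the heme oxygenase, rose 2.51-fold without ALA and its interaction (0.85, SE 0.30, adjusted p = 0.0894) was not called, except with quantile normalization and without the second array in hypoxia (1.13).

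In a list of 14 daughter-cell and cell separation genes, 6 were lower and none higher (median -0.81). DSE2, secreted by daughter cells, gave 6271 and 6171 with ALA, 376 and 311 when it was withheld, 5573 and 5126 under normoxia and 2271 and 1923 in hypoxia. Arrays without ALA were the lowest by far, with hypoxia next, and the controls lay closest together. It fell 18.2-fold and 2.56-fold (interaction -2.83, SE 0.22, adjusted p = 0.000437). SCW11, a glucanase, fell at least 12.6-fold and 2.11-fold (interaction -2.82, SE 0.32, adjusted p = 0.00164, and -2.58 with dim signals raised). EGT2, from the same list, fell 6.17-fold without ALA with a hypoxia response of -0.46 (SE 0.18, adjusted p = 0.0567), which quantile normalization and median centring called. Whether fewer cells of a kind, such as new daughters, or less RNA in each cell lie behind a lower signal cannot be told apart in these bulk samples. SUN4 and PIR1, wall proteins, also fell more without ALA: SUN4 by 7.97-fold against 2.65-fold, and PIR1 by 7.99-fold against 1.84-fold.

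Of 20 wall mannoprotein and glucan enzyme genes, 6 were higher and 3 lower (median 0.14, and -0.24 with spike-in scaling). SCW10, a glucanase, read 1758 and 1729.8 with ALA, 399.7 and 536 when it was withheld, 3024 and 2853 under normoxia and 208 and 178 in hypoxia; all groups were separate, with falls of 3.77-fold without ALA and 15.3-fold in hypoxia (interaction 2.02, SE 0.26, adjusted p = 0.00246). A second, dimmer probe set of SCW10 had log2 responses of -0.47 and 0.14 and an interaction of -0.62 that was not called, so the probe sets of this gene differ. CWP1, a major mannoprotein, was the least even: 2757 and 1113 with ALA, 281 and 300.5 when it was withheld, 9306 and 8039.9 under normoxia and 249 and 290.5 in hypoxia. The arrays with ALA differed more than those of any other group, and the interaction (2.42, SE 0.50, adjusted p = 0.0150) was not called without the first array in hypoxia (2.30) or without the arrays high in 18S. All 4 mating type alpha genes fell in both treatments and had higher interactions (median 1.42), 1 of them with spike-in scaling. MF(ALPHA)2, a pheromone precursor, stood at 3765 and 5458 with ALA, 400.0 and 626 when it was withheld, 5721 and 5518 under normoxia and 125 and 91.2 in hypoxia. It fell 9.06-fold without ALA and 52.6-fold in hypoxia (interaction 2.54, SE 0.38, adjusted p = 0.00479).

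Cell cycle and protein turnover lists leaned higher, but the scaling decides how many are called. Of 25 G1 cyclin and DNA replication genes 8 were higher and none lower (median 0.50), of 4 histone genes 3 were higher (median 0.81), and of 33 proteasome genes 8 were higher and RPN4 lower (median 0.50). With spike-in scaling the counts were 2 higher and 2 lower, 0 and 0, and 0 and 2. TOS4, a transcription factor bound near G1 genes, held in every setting: 73.7 and 82.0 with ALA, 13.5 and 15.8 when it was withheld, 201 and 234 under normoxia and 4.47 and 5.80 in hypoxia. It was above the 30th percentile of the array in the control cultures only, so its folds are bounds and the size of its interaction rests on dim signals. TOS4 fell at least 1.63-fold without ALA and at least 5.17-fold in hypoxia (interaction 3.00, SE 0.42, adjusted p = 0.00406, and 1.66 with dim signals raised). RPN4, the activator of proteasome genes, rose 3.19-fold in hypoxia, with a log2 heme depletion response of 0.35 (interaction -1.33, SE 0.23, adjusted p = 0.00751, not called without the arrays high in 18S). Of the proteasome subunits, 7 of the 8 that were called were hypoxia only, with log2 hypoxia responses of -1.21 to -0.70.

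Of 80 cytosolic ribosomal protein genes, 60 fell without ALA and 66 in hypoxia. In 36 of them both responses were called in the same direction, with any gap under 2-fold by the interval of the interaction. Of all genes tested, 14.3% met this description. The interaction was called for 10, 7 higher and 3 lower, and its median was 0.30. With spike-in scaling the median was -0.07, with 0 higher and 4 lower. None of 55 mitochondrial ribosomal protein genes was called, and 1 was without the arrays high in 18S and 3 with spike-in scaling. RPL7B, the minor copy of a pair, was opposite, with a 1.64-fold fall and a 1.57-fold rise (interaction -1.37, SE 0.21, adjusted p = 0.00507); its probe set can share sequence with the other copy, and median centring made it heme depletion only.

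All 25 stress genes rose without ALA, and in hypoxia 24 rose and HSP82 fell. The interaction was called for 13, 7 higher and 6 lower (median -0.020; with spike-in scaling 3 higher and 7 lower, median -0.40). The higher ones were mostly chaperones of the heat shock response. HSP104, a disaggregase, measured 318 and 496 with ALA, 2719.9 and 2613 when it was withheld, 796 and 1186 under normoxia and 1940.4 and 1964 in hypoxia. Its arrays without ALA were the highest. HSP104 rose 6.71-fold without ALA and 2.01-fold in hypoxia (interaction 1.74, SE 0.35, adjusted p = 0.0133), a call lost with spike-in scaling, without the first array in hypoxia (1.73) and without the arrays high in 18S; median centring made it heme depletion only, as did removal of the first array in normoxia (2.03). The lower ones included HSP26, a small heat shock protein gene, with 1309 and 1265 with ALA, 6591 and 5948 when it was withheld, 341 and 362 under normoxia and 7294 and 7135 in hypoxia. Hypoxia was highest and normoxia lowest with no overlap, and it had rises of 4.87-fold and 20.5-fold (interaction -2.08, SE 0.19, adjusted p = 0.000787). GPH1, the glycogen phosphorylase, rose 3.69-fold and 17.8-fold (interaction -2.27, SE 0.29, adjusted p = 0.00264), and DDR2, a stress gene of unclear function, 4.96-fold and 16.1-fold. DDR2 was chosen after its values were seen because it kept its class throughout. TSA2, a stress-induced peroxiredoxin outside this list, also rose more in hypoxia, 51.0-fold against 10.5-fold.

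**Figure D5:**
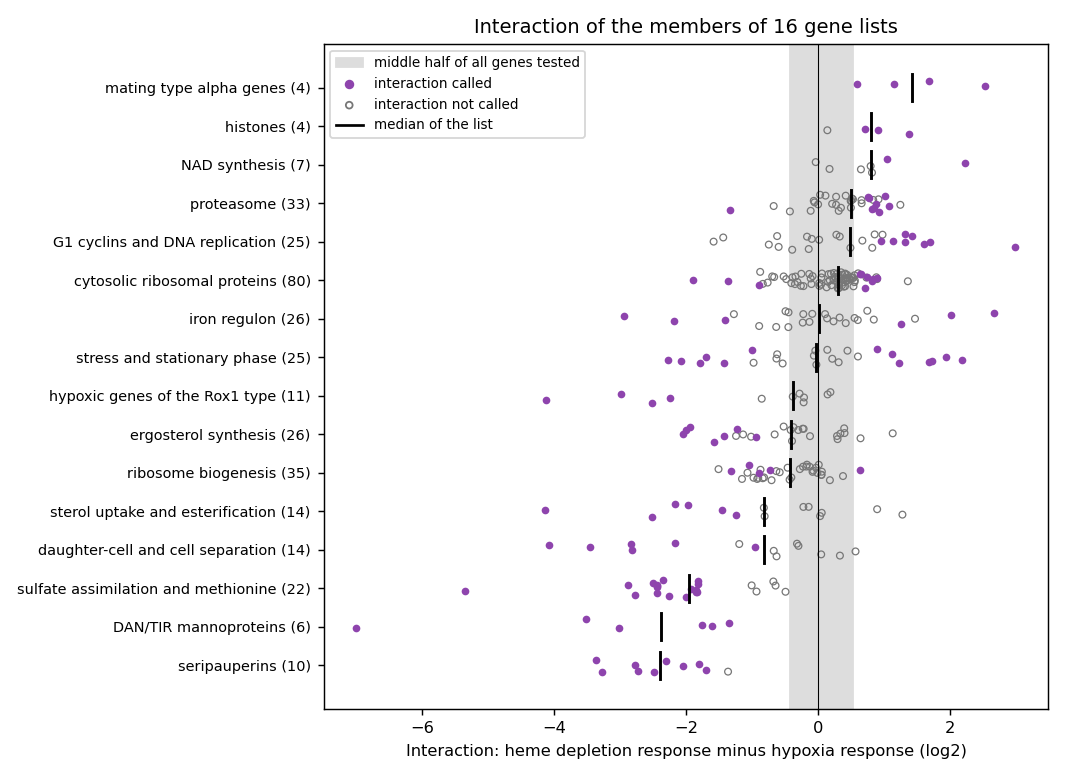
Interaction of each tested member (points, log2, filled where called) of 16 gene lists, with the list's median as a bar, the number tested in brackets and the interquartile range of all genes tested shaded. The sulfate, DAN/TIR and seripauperin members lie to the left of the shaded band, with medians of -1.96, -2.38 and -2.39, and stress members lie on both sides.

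Both responses were called in 1911 of the 5284 genes, and 1824 of these went the same way. Over all genes, 50.2% were called without ALA and 56.6% in hypoxia, and overlap beyond what these shares give was not tested. For 753 genes (14.3%), all of them among the 1824, the 95% interval of the interaction lay within -1 and 1. Any gap between their responses was thus under 2-fold by that interval, and they are called equal below in that sense only. For the remaining same-direction genes without a call, the interval reached beyond these bounds with 2 arrays a group. COX5B and HMG2 are among the 753. So is MF(ALPHA)1, which also had a called interaction and counts as unequal as well. The responses share no arrays, but their tests share an estimate of the spread, and median centring moves both in the same direction. The part of either in these counts was not tested.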

How the data were processed

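RNA extracted with Trizol was hybridised to 8 one-colour Affymetrix arrays, 2 for each of 4 groups. The deposited intensity values are linear MAS5 signals, per the submitters' processing notes, which give no version. They were taken to log2 with no further normalization. Of 9275 probe sets other than controls, 6504 had 1 gene, 328 several and 2443 none in the platform annotation. A probe set was tested when 2 or more of the 8 arrays put it above their own 30th percentile, which also took it through for being high in 1 group. A gene was read from its probe set with the highest mean log2 signal. limma 3.58.1 in R 4.3.3 fitted 1 mean a group over all 8 arrays, with an intensity trend, 4 residual and 4.36 prior degrees of freedom, two-sided tests and Benjamini-Hochberg adjustment over 7081 probe sets. Only 2 arrays a group limit the precision.

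A fold is called "at least" where any array of the lower group lay at or below that percentile, which stands in for the level on that array. The text names the 6 genes of each class and direction with the largest interaction after raising dim signals to the percentile, among those of the same class with quantile normalization and with probe sets not ending in _f_at or _i_at, the 2 members of each list with the smallest adjusted p, and a fixed set of heme and oxygen genes; 133 genes qualified and not all are printed. The members, the lists and the rule were chosen with earlier results of these data known. Alternatives were quantile normalization, median centring, spike-in scaling, other filters, a floor, an offset, no trend, and leaving out arrays. Promoter motifs were not searched here.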

Additional observations from a re-analysis of the deposited data

Results flagged for a closer look

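The 18S ribosomal RNA control, which enters no comparison, read 10736.2 on the second array in hypoxia and 3507.05 on the first array without ALA, above the control arrays with ALA and in normoxia. The other 6 arrays lay between 115 and 355. Without these arrays, which leaves 1 array in each treated group whose spread is assumed to be that of the others, 267 genes had a called interaction, 132 higher and 135 lower. All 859 called genes kept their sign, and 246 were still called. The first array in hypoxia, which was kept, read 7627 for the 25S ribosomal RNA control, against 9804 on the second. The part of the 18S and 25S signals in the results was not tested.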

How the results depend on the processing

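With 2 arrays a group and a shared spread, the sign of the interaction changed less often than its call or class. Genes called on these same arrays were likely to keep their sign, so this is not independent support. Without the 2 arrays high in 18S the interaction was called for 267 genes, with 50 opposite, 68 heme depletion only, 84 hypoxia only, 65 unequal and 0 called in neither response, while 351 were equal. The 4 genes called in neither response became 7 with quantile normalization, 8 with median centring, 2 with the filter at the 50th percentile and 1 with the floor. The 753 genes of equal same direction, set by the interval of the interaction and not by the lack of a call, became 1205 with log2(signal + 50). Leaving out 1 array at a time gave 356 (without the first array in hypoxia) to 745 (without the first in normoxia) called genes, 48 to 82 opposite, 77 to 185 heme depletion only, 120 to 273 hypoxia only, 111 to 199 unequal, 0 to 6 in neither and 469 to 594 equal. Fewer arrays leave fewer degrees of freedom. Spike-in scaling called 674 genes, 123 higher and 551 lower, against 518 and 341; the shares higher were 18.2% and 60.3%. Without the arrays high in 18S 49.4% were higher. Among 2256 interactions of named genes under alternatives, 2090 kept direction and side of the threshold, 132 lost the call, 19 gained it and 15, none called, changed sign. The last were COX5B (-0.23 with spike-in scaling, -0.14 without the arrays high in 18S, -0.048 to 0.35 with 1 array left out), FET4 (-0.77 to 0.22 with 1 array left out), HMG2 (-0.44 to 0.0095 likewise), PUG1 (0.15 with quantile normalization, 0.35 with the floor, 0.67 with log2(signal + 50), -0.69 to 0.28 with 1 array left out) and ROX1 (-0.18 with spike-in scaling, -0.22 with the floor, -0.027 to 0.41 with 1 array left out). The cause was not tested. No paired analysis was possible because the labels number no replicates across groups.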

Other observations

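Nutrient lists not described above were mixed. Of 12 thiamine genes 6 were called: PET18, THI6, THI20 and THI7 higher, and THI22 and THI72 lower (median 0.62); with spike-in scaling 0 were higher and 2 lower. These 6 kept their classes in 4 to 13 of the 17 alternatives, and a second probe set of THI72 was not called (-0.92). Of 12 branched-chain amino acid genes 4 were called, 3 of them lower. ILV5, an early enzyme of the pathway, and BAT1, its transaminase, were opposite, with log2 heme depletion responses of -0.47 and -0.71 and hypoxia responses of 1.37 and 0.61. ILV5 kept this class in 11 of the 17 alternatives and BAT1 in 6. In the citric acid cycle, 3 of 11 genes were lower: IDH1, IDH2 and ACO1, the aconitase, whose log2 responses were -2.21 without ALA and -0.48 in hypoxia. ACO1 kept its class in 12 of the 17 alternatives; without the first or second array in hypoxia or the second in normoxia it was called under heme depletion only (interactions -1.76, -1.71 and -1.86). IDH2 (interaction -0.80) kept its class in 4, and its interaction was not called with quantile normalization or without any one array other than the second in normoxia (-0.93 to -0.67). Of 14 ATP synthase genes 3 were higher, ATP16, ATP3 and ATP2, and none with spike-in scaling; they kept their classes in 14, 11 and 4 of the 17 alternatives.

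Probe sets without a single gene name were called in another balance. Of 1022 tested probe sets with no gene, 251 had a called interaction (24.6%), 29 higher and 222 lower, with a median of -0.51. Of 297 with several genes, 83 were called (27.9%), 16 higher and 67 lower. Of 5762 with 1 gene, 923 were called (16%), 554 higher and 369 lower. These probe sets are unnamed here, and no test compared the kinds.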
